A study of Homo sapiens with 18 samples.

Results

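The genes described here are the protein disulfide isomerases and the ER oxidases, 10 genes taken by symbol from the 57736 genes of the count table: P4HB, PDIA3, PDIA4, PDIA5, PDIA6, TXNDC5, ERP44, TXNDC11, ERO1A and ERO1B. All 10 passed the filter on low counts, along with 17317 genes in all. RNA was measured in A1847, a high-grade serous ovarian cancer cell line, by 3′ mRNA sequencing, in which each transcript is read near its 3′ end. The 18 libraries form 6 groups of 3. Control cells, labelled WT for CARM1 and for XBP1, cells labelled koCARM1 (CARM1 knockout, XBP1 WT) and cells labelled shXBP1 (XBP1 knockdown, CARM1 WT) were each taken under vehicle (ctr) and after 5 μg/ml tunicamycin (TM) for 8 h. The knockout was made with a lentiviral CRISPR construct carrying 1 CARM1 guide and puromycin selection, the knockdown with 1 lentiviral shRNA, and whether the knockout cells were 1 clone is not given in the sources used here. The labels do not say whether the replicates were separate cultures, so the p-values measure only the spread between these samples, which may be technical.

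Secreted and membrane proteins form their disulfide bonds in the endoplasmic reticulum (ER). Protein disulfide isomerases pass disulfides to folding clients and rearrange wrong ones, and the ERO1 oxidases re-oxidise the isomerases, with hydrogen peroxide as the by-product. Tunicamycin blocks N-linked glycosylation, so that glycoproteins misfold and the unfolded protein response starts; its sensor IRE1 splices XBP1 mRNA into the form that encodes the transcription factor XBP1s. CARM1 is an arginine methyltransferase that acts as a transcriptional coactivator. The study asked which genes of the tunicamycin response depend on CARM1 and on XBP1s.

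Library totals ran from 9367462 to 13917212 counts, with a median of 12899158. XBP1 mRNA in the knockdown was lower than in control cells under vehicle (24.0 to 26.5 against 43.2 to 51.1 CPM, counts scaled to library size) and under tunicamycin (69.0 to 73.6 against 148 to 153 CPM). CARM1 mRNA was still present in the knockout, at 71.5 to 77.6 CPM under vehicle against 160 to 165 CPM in control cells. 3′ tags do not report on a frameshift upstream. CARM1 mRNA was higher in the knockdown than in control cells, at 188 to 193 CPM under vehicle. Under tunicamycin it was at 166 to 181 against 133 to 140 CPM. XBP1 mRNA in the knockout lay below every control library of the same treatment, at 30.0 to 41.4 CPM under vehicle and 140 to 145 CPM under tunicamycin. The 6 knockout libraries stood apart from the other 12. By a rule of at least 100 counts in every library of one set and at most 3 in every library of the other, 113 genes were found in the knockout libraries only and 27 in the other libraries only, whereas the same rule found 0 and 0 genes for the XBP1 knockdown. Among the markers of ovarian cancer epithelium, PAX8 was at 56.9 to 65.2 CPM in knockout cells and 0 to 0.0773 CPM in control cells under vehicle, and KRT7 at 393 to 433 against 0.232 to 0.883 CPM. PAX8, a defining marker, was thus near 0 in the control cells, and MUC16 was at 0 in every library. KRT19 and CDH6 went the other way under vehicle, at low levels. KRT19 was at 0 CPM in knockout and 0.33 to 1.24 CPM in control cells, and CDH6 at 0 to 0.229 against 0.368 to 0.468 CPM. Leukocyte and endothelial markers summed to at most 10.5 and 0.318 CPM in any library. Of the fibroblast markers, the collagens went opposite ways under vehicle. COL1A2 had 789 to 867 CPM in control cells and 0 to 0.586 CPM in knockout cells, and COL1A1 13.1 to 17.3 against 457 to 493 CPM. The 5 fibroblast markers summed to 809 to 889 CPM in control and 462 to 501 CPM in knockout cells. The summed level of the 11 epithelial markers was 2683 to 2777 CPM in knockout, 311 to 332 in control and 131 to 144 in knockdown cells under vehicle. KRT18 made up most of each sum, at 1466 to 1493, 253 to 267 and 108 to 123 CPM. In every comparison with the knockout below, loss of CARM1 and these other differences between the cells cannot be told apart, and the part of the markers in each result was not tested.

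All 10 genes were higher under tunicamycin than under vehicle in control cells, from 1.13-fold for ERO1A to 10.2-fold for ERO1B. Over all genes tested by edgeR's quasi-likelihood test at a false discovery rate of 5%, 21.4% were called higher and 20.4% lower. The median log2 fold change of the 10 genes was 1.40, beside −0.00044 over all genes. The summed level of the 10 genes rose from 1483 ± 85.6 CPM (SD, n = 3) under vehicle to 3149 ± 65.6 CPM, or 2.12-fold. The same rule called 10 genes higher in knockout cells, where 18% of all genes were called higher and 21.4% lower, with a median of 1.19 beside −0.028 over all genes. In knockdown cells 9 of 10 were called higher, against 19.7% higher and 18.5% lower among all genes, with a median of 1.01 beside 0.0038. None of the 10 was called lower under tunicamycin in any of the 3 genotypes by edgeR or by DESeq2, and none was lower at an unadjusted p under 0.05. Of all 17317 genes tested, 8280 in control, 8078 in knockout and 7803 in knockdown cells had such an unadjusted p in either direction. Exact permutation of 3 against 3 libraries cannot reach a p below 0.1, so the tests share their estimate of spread across genes.

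**Figure D1:**
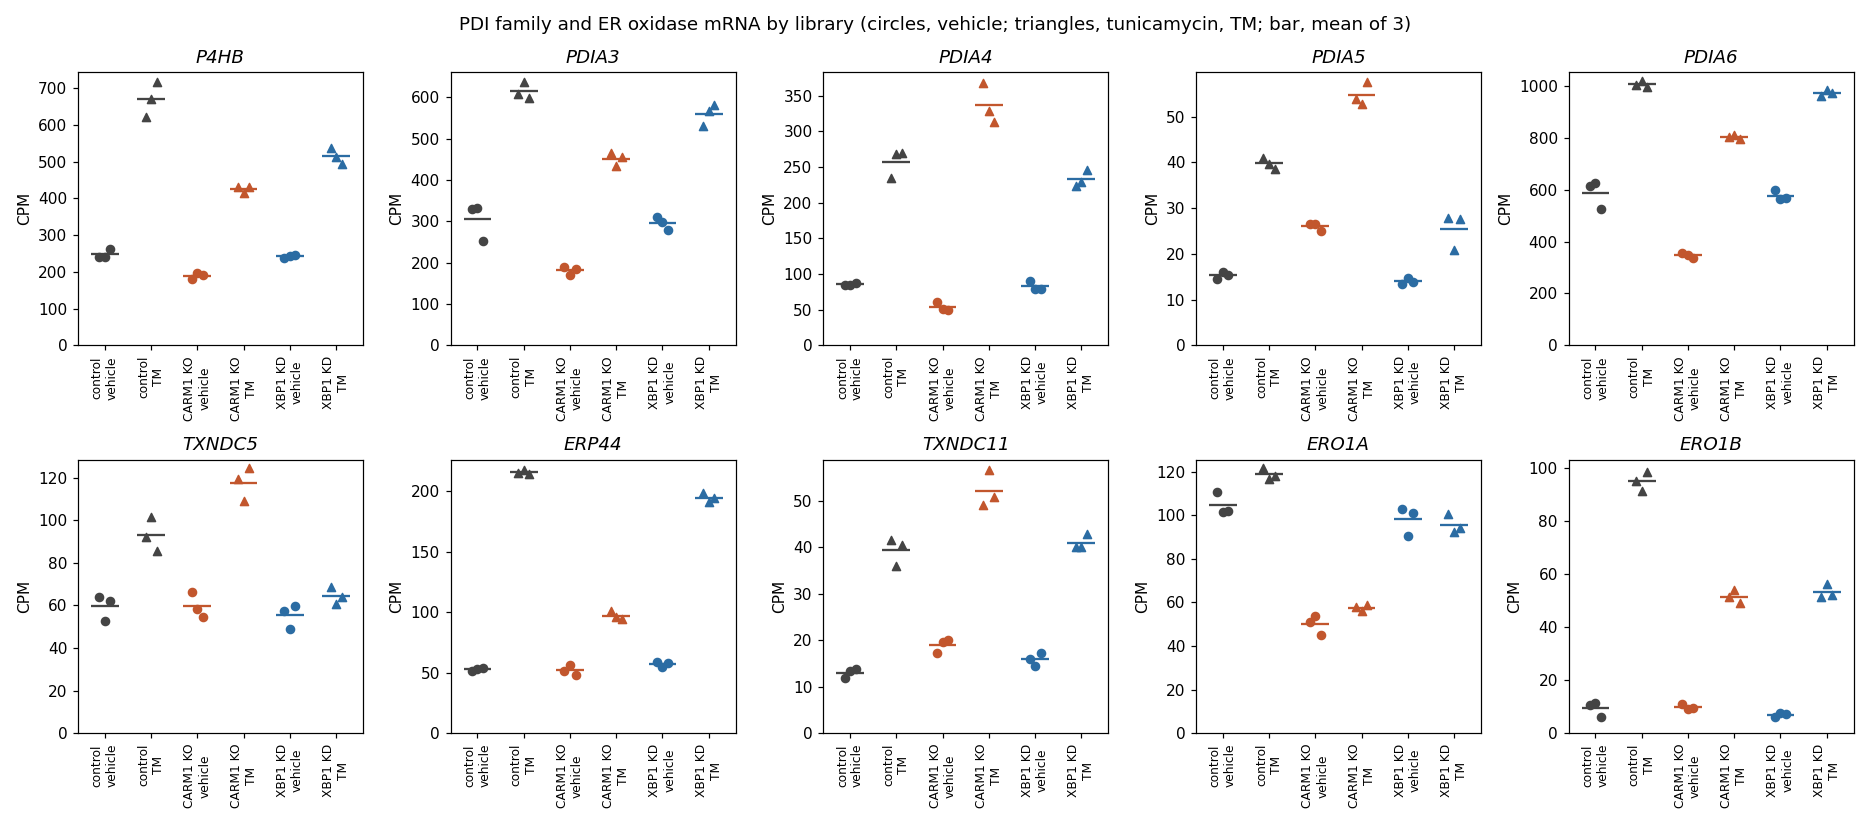
Level of each of the 10 genes (CPM, linear axes from 0) in every library, for control, CARM1 knockout (KO) and XBP1 knockdown (KD) cells under vehicle (circles) and tunicamycin (TM, triangles), with the mean of 3 libraries as a bar. ERO1B stands at 6.15 to 11.3 CPM in control cells under vehicle and at 91.1 to 98.4 CPM under tunicamycin, whereas ERO1A stays between 101 and 122 CPM.

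P4HB (chr17:79801035-79818732, minus strand, GRCh37) is the founding isomerase and also the beta subunit of the collagen prolyl 4-hydroxylase. Its level in control cells was 241, 241 and 262 CPM under vehicle and 622, 670 and 717 CPM under tunicamycin. The groups did not overlap, and the log2 fold change was 1.43 ± 0.06 (SE; adjusted p = 1.54e-11, edgeR). PDIA3 (chr15:44038592-44065477, plus strand) is the isomerase that works on glycoproteins bound by calnexin and calreticulin. It read 331, 332 and 254 CPM under vehicle and 608, 638 and 599 CPM under tunicamycin. Control replicate 3 was the low vehicle library here, and the groups did not overlap at a log2 fold change of 1.01 ± 0.08 (adjusted p = 3.62e-08).

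PDIA6 (chr2:10923517-10978103, minus strand), an isomerase that works beside the chaperone BiP, had the highest CPM of the 10 genes, though such levels are not compared between genes here. Under vehicle the control libraries gave 613, 626 and 527 CPM and under tunicamycin 1004, 1019 and 995 CPM. Again replicate 3 was the low one, and the log2 fold change was 0.77 ± 0.06 (adjusted p = 2.77e-08). PDIA4 (chr7:148700154-148725754, minus strand), a large isomerase with an extra active thioredoxin domain, rose from 84.4, 85.2 and 87.8 CPM to 234, 268 and 270 CPM. This was a log2 fold change of 1.58 ± 0.06 (adjusted p = 9.01e-12).

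PDIA5 (chr3:122785872-122944074, plus strand), an isomerase that has been tied to activation of the stress sensor ATF6, was at 14.5, 16.0 and 15.4 CPM under vehicle and 41.0, 39.7 and 38.6 CPM under tunicamycin. The gap was wide against a spread of about 1 CPM in each group, with a log2 fold change of 1.38 ± 0.09 (adjusted p = 2.21e-09). TXNDC5 (chr6:7881750-7911021, minus strand), a fast donor of disulfides, gave the smallest rise among the isomerases. It was at 63.8, 52.8 and 62.1 CPM under vehicle and 92.1, 101 and 85.5 CPM under tunicamycin, a log2 fold change of 0.64 ± 0.08 (adjusted p = 7.44e-06). A readthrough gene, BLOC1S5-TXNDC5, overlaps TXNDC5 on the same strand and can share its reads. Summing both genes kept the direction and the call in each comparison of TXNDC5 reported here, an alternative chosen after seeing the data.

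ERP44 (chr9:102741467-102861334, minus strand) retrieves the ERO1 oxidases and unassembled cargo to the ER through mixed disulfides. Control cells had 51.7, 52.8 and 54.3 CPM under vehicle and 215, 218 and 214 CPM under tunicamycin. The 3 libraries of each group agreed within a few CPM, and the 4.07-fold rise (log2 2.03 ± 0.06, adjusted p = 1.01e-13) had the smallest adjusted p of the 10. TXNDC11 (chr16:11772939-11836713, minus strand), a thioredoxin-domain protein that binds the DUOX oxidases and takes part in degradation of ER glycoproteins, was at 11.8, 13.3 and 13.7 CPM under vehicle and 41.5, 36.03 and 40.5 CPM under tunicamycin. It rose 3.03-fold (log2 1.60 ± 0.10, adjusted p = 1.44e-09).

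The oxidases differed from each other more than any other pair of the 10 genes. ERO1A (chr14:53106633-53162618, minus strand), the widely expressed oxidase, read 110, 101 and 102 CPM under vehicle and 122, 116 and 118 CPM under tunicamycin in control cells. The groups did not overlap, but the log2 fold change was only 0.18 ± 0.06 (adjusted p = 0.0208). That call was lost without control vehicle replicate 2 (adjusted p = 0.0923), without control tunicamycin replicate 1 (0.0555) or 3 (0.0589), and under scaling by library totals alone (0.193). ERO1B (chr1:236377981-236445319, minus strand), the oxidase known from secretory tissues, was at 10.7, 11.3 and 6.15 CPM under vehicle and 95.1, 91.1 and 98.4 CPM under tunicamycin. Vehicle replicate 3 was the low one, every tunicamycin library was far above, and the log2 fold change was 3.35 ± 0.14 (adjusted p = 8.77e-12).

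Within a library the ratio of the oxidases is free of normalization. 3′ tags are not a measure of molecules that can be set between genes, so the ratio is compared only between groups. In control cells there were 9.66, 11.2 and 6.03 ERO1B counts per 100 ERO1A counts under vehicle and 78.2, 78.3 and 83.4 under tunicamycin. In knockdown cells the ratio was 5.78, 8.23 and 7.30 under vehicle and 50.9, 61.0 and 55.5 under tunicamycin. Under vehicle, knockout cells had a higher ratio than either of the other genotypes, at 22.0, 16.9 and 21.0, with ERO1A low and ERO1B within the control range. Under tunicamycin the knockout ratio was 88.9, 95.8 and 83.9. The mean ratio thus rose 8.93-fold in control, 7.86-fold in knockdown and 4.49-fold in knockout cells, and no group's range under tunicamycin overlapped another's, though the control and knockout ranges nearly touched.

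**Figure D2:**
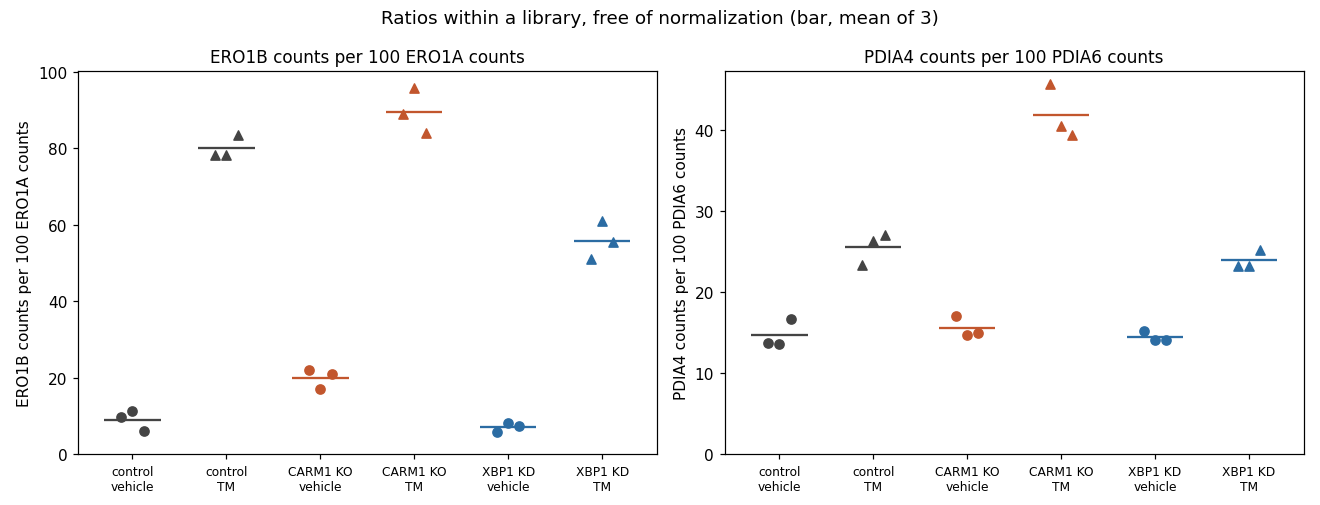
ERO1B counts per 100 ERO1A counts (left) and PDIA4 counts per 100 PDIA6 counts (right) in every library, with linear axes from 0, circles for vehicle, triangles for tunicamycin (TM) and a bar for the mean of 3 libraries. The ERO1B to ERO1A ratio goes from 6.03 to 11.2 up to 78.2 to 83.4 in control cells, and the PDIA4 to PDIA6 ratio reaches 39.4 to 45.8 in knockout cells (KO) under tunicamycin against 23.3 to 27.1 in control cells.

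The promoters of the 10 genes were read for the sites of the stress factors. RefSeq start sites (GRCh38.p14) gave 12 windows for 9 of the 10 genes, each 250 bases before and 50 bases after the start, among 35116 windows in all. Both strands were searched for the ER stress response element (CCAAT, 9 bases, CCACG), its second form (ATTGG, 1 base, CCACG), the XBP1 and ATF6 motif TGACGTG and the ATF4 composite motif TGATGNAAT. The first 3 share letters of the core CACG, so 1 stretch can match more than one of them. The first element was in 0.0769% of all windows and in 2 of the 12, one of PDIA6 and that of ERO1B. TGACGTG was in 1.97% of all windows and in 2 of the 12, one of TXNDC5 and that of TXNDC11. The second element (0.0541% of all windows) and TGATGNAAT (0.991%) were in 0 of the 12. A match is a description of letters, not a measured binding site, and a window without one says nothing about the factor.

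The 250 bases before the start are shown for the oxidases and for the PDIA6 window with the element. Capitals mark both parts of the ER stress response element, which ERO1B carries on the other strand, 243 bases before the start. The ERO1A window held none of the motifs searched, and neither did any window of P4HB, PDIA4, PDIA5 or ERP44. Under tunicamycin in control cells P4HB, PDIA4, PDIA5 and ERP44 rose 2.70-, 3.00-, 2.60- and 4.07-fold. PDIA6, with the same element as ERO1B, rose 1.71-fold. The part of these motifs in the responses was not tested. For TXNDC5 and TXNDC11 a short stretch around TGACGTG is shown, in capitals, which begins 92 bases before the TXNDC5 start and 6 bases after the TXNDC11 start.
ERO1B, chr1:236281959-236282208, minus strand: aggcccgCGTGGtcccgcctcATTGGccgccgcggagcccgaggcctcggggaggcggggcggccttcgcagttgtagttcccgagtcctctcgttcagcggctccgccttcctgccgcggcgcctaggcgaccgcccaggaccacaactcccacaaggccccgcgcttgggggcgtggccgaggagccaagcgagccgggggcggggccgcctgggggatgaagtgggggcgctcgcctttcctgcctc
ERO1A, chr14:52695559-52695808, minus strand: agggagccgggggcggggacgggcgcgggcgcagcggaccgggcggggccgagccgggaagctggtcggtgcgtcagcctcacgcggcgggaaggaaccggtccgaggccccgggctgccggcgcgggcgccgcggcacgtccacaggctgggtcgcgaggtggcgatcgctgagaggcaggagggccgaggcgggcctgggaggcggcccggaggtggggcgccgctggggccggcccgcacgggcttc
PDIA6, chr2:10812786-10813035, minus strand: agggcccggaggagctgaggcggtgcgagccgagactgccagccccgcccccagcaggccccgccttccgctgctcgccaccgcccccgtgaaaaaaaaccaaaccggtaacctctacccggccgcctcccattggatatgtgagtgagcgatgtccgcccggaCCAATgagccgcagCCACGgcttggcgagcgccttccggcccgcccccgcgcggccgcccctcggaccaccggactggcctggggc
TXNDC5, chr6:7910153-7910179, minus strand: cactggcggcTGACGTGgcgctcggcg
TXNDC11, chr16:11742836-11742862, minus strand: gcggcgcggcTGACGTGgagcgtccgg

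The response differed between control and knockout cells for 8 of the 10 genes by the interaction term of edgeR's fit over the 4 groups. It was called higher in the knockout for 4 genes and lower for 4, against 10.3% higher and 12.7% lower among all genes. ERP44 had the clearest term on the lower side. Knockout libraries gave 51.4, 56.3 and 48.5 CPM under vehicle and 101, 95.8 and 94.8 CPM under tunicamycin. Vehicle levels overlapped those of control cells, whereas every tunicamycin library stayed below 102 CPM against at least 214 CPM in control cells. ERP44 rose 1.86-fold in the knockout and 4.07-fold in control cells, an interaction of −1.13 ± 0.08 on the log2 scale (adjusted p = 2.25e-09).

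PDIA4 went the other way. It was at 60.6, 51.4 and 50.1 CPM in knockout cells under vehicle, below control cells, and at 368, 329 and 313 CPM under tunicamycin, above them. Its 6.19-fold rise against 3.00-fold in control cells gave an interaction of 1.05 ± 0.10 (adjusted p = 2.53e-07). Set against PDIA6 in the same library, PDIA4 had 17.1, 14.7 and 14.9 counts per 100 in knockout cells under vehicle, overlapping the 13.8, 13.6 and 16.7 of control cells. Under tunicamycin the ratio was 45.8, 40.5 and 39.4 in the knockout and 23.3, 26.3 and 27.1 in control cells, with no overlap.

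ERO1B rose less in the knockout. It was at 11.2, 9.05 and 9.49 CPM under vehicle, within the range of control cells, and at 51.4, 53.8 and 49.1 CPM under tunicamycin. The rise was 5.16-fold against 10.2-fold, an interaction of −0.98 ± 0.19 (adjusted p = 0.000717). PDIA6 rose more in the knockout, 2.32-fold against 1.71-fold (interaction 0.44 ± 0.07, adjusted p = 0.000137), from a lower start of 354, 349 and 336 CPM to 803, 812 and 794 CPM. P4HB rose less, 2.24-fold against 2.70-fold (interaction −0.27 ± 0.08, adjusted p = 0.013). The calls for these 5 genes, ERP44, PDIA4, ERO1B, PDIA6 and P4HB, were kept under every alternative run.

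The terms of PDIA3 (0.30 ± 0.10, adjusted p = 0.0433), PDIA5 (−0.31 ± 0.10, 0.0353) and TXNDC5 (0.33 ± 0.12, 0.0489) were near the threshold. Each was lost when any of several single libraries was left out, from control replicate 1 under vehicle (adjusted p = 0.123, 0.0873 and 0.124) to knockout replicate 1 under tunicamycin (0.0965, 0.0687 and 0.0917). TXNDC11 (−0.13 ± 0.13) and ERO1A (0.018 ± 0.086) did not pass the test.

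**Figure D3:**
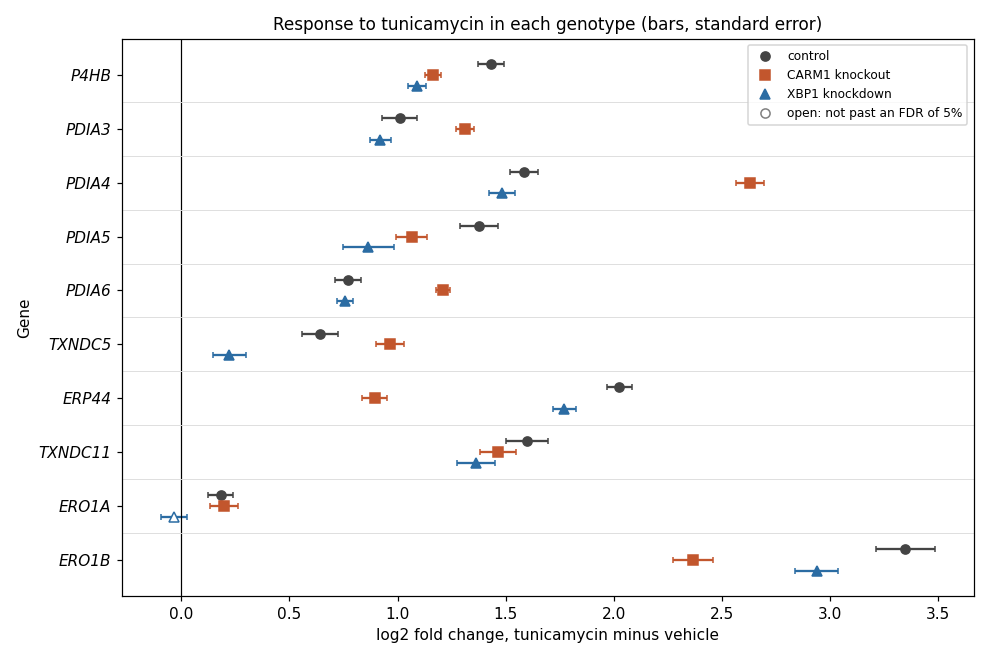
Log2 fold change of each gene under tunicamycin against vehicle in control (circles), CARM1 knockout (squares) and XBP1 knockdown (triangles) cells, with the standard error as a bar and open symbols for values that did not pass a false discovery rate of 5%. ERP44 lies at 0.89 in knockout and 2.03 in control cells, PDIA4 at 2.63 and 1.58, and only ERO1A in knockdown cells is open.

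Compared at 1 treatment, the knockout and control cells differed in both directions. Under vehicle the knockout had 5 of the 10 lower and 2 higher, where 35.3% of all genes were called lower and 38.8% higher, and the median of the 10 genes was −0.20 beside 0.014 over all genes. Under tunicamycin 6 were lower and 4 higher, against 37.1% lower and 38.1% higher among all genes, with a median of −0.39 beside −0.023. Beside such shares among all genes, these counts are not particular to the 10 genes. The comparisons under tunicamycin with the knockout and with the knockdown share the same 3 control libraries, as do those under vehicle.

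ERO1A was lower in knockout cells at both treatments. It read 50.9, 53.5 and 45.2 CPM under vehicle and 57.9, 56.1 and 58.6 CPM under tunicamycin, all below the lowest control library. The log2 fold changes were −1.06 ± 0.07 (adjusted p = 1.07e-09) and −1.04 ± 0.05 (8.15e-11). In the knockout its rise under tunicamycin was 0.20 ± 0.06 (adjusted p = 0.0176), a call lost without knockout replicate 3 under vehicle (0.0978) or under tunicamycin (0.0624).

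P4HB, PDIA3 and PDIA6 were lower in the knockout at both treatments. P4HB was at 180, 198 and 192 CPM under vehicle and 431, 415 and 430 CPM under tunicamycin, log2 changes against control cells of −0.39 ± 0.05 (adjusted p = 6.25e-06) and −0.65 ± 0.05 (1.06e-08). PDIA3 was at 191, 170 and 184 CPM, then 465, 434 and 455 CPM, with changes of −0.75 ± 0.08 and −0.45 ± 0.04. PDIA6 changed by −0.76 ± 0.06 under vehicle and −0.33 ± 0.04 under tunicamycin. For these 3 genes no knockout library reached the lowest control library of the same treatment.

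PDIA5 and TXNDC11 were higher in the knockout at both treatments. PDIA5 was at 26.5, 26.6 and 25.1 CPM under vehicle and 53.7, 52.6 and 57.6 CPM under tunicamycin, log2 changes of 0.77 ± 0.09 and 0.46 ± 0.07. TXNDC11 was at 17.2, 19.7 and 20.02 CPM, then 49.1, 56.6 and 50.7 CPM, with changes of 0.54 ± 0.11 and 0.41 ± 0.08. PDIA4 was lower under vehicle (−0.66 ± 0.07, adjusted p = 5.33e-07) and higher under tunicamycin (0.39 ± 0.06, 6.08e-05).

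Under vehicle TXNDC5 (0.011 ± 0.085), ERP44 (−0.021 ± 0.069) and ERO1B (0.092 ± 0.194) did not pass the test and their groups overlapped. Scaling by library totals alone moves the median of all genes by −0.21 in this comparison, and TXNDC5 (−0.20, adjusted p = 0.0405) and ERP44 (−0.24, 0.00567) were then called lower while ERO1B stood at −0.12. Under tunicamycin TXNDC5 was higher, at 119, 109 and 125 CPM (0.34 ± 0.07, adjusted p = 0.00035). ERP44 was lower (−1.15 ± 0.05, adjusted p = 6.75e-12) and so was ERO1B (−0.88 ± 0.06, 2.52e-09).

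Genes near a member in the genome also differed between these cells, as did most genes. Over all genes tested under vehicle, 38.8% were called higher and 35.3% lower in the knockout. Their median change was 0.014, with quartiles at −0.70 and 0.87. Over the 109 genes tested within 5 Mb of P4HB, the median change in the knockout under vehicle was −0.54, and over the 56 genes near TXNDC5 it was 0.75. Near ERP44 (57 genes) the median was −0.30, near PDIA3 (112 genes) −0.21 and near ERO1A (69 genes) 0.13. Near PDIA6 it was −0.22, near PDIA4 −0.091, near ERO1B −0.022, near PDIA5 0.26 and near TXNDC11 0.27. The neighbours spread widely. ERO1A itself was at −1.06, with its neighbours' quartiles at −0.48 and 0.79, and P4HB at −0.39 (−0.99 and 0.11). TXNDC5 was at 0.011 (−0.14 and 1.99), ERP44 at −0.021 (−0.96 and 0.32) and PDIA3 at −0.75 (−0.59 and 0.45). PDIA6 was at −0.76 (−0.73 and 0.56), PDIA4 at −0.66 (−0.93 and 1.23) and PDIA5 at 0.77 (−0.29 and 1.42). TXNDC11 was at 0.54 (−0.24 and 0.79) and ERO1B at 0.092 (−0.60 and 2.97). In the XBP1 knockdown the same medians lay between −0.055 and 0.032 under vehicle. The part of the neighbouring genes in these differences was not tested.

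XBP1 knockdown and control cells were compared next. Under vehicle edgeR called 0 of the 10 genes higher and 0 lower, against 2.34% higher and 2.94% lower among all genes, with a median of −0.045 beside 0 over all genes. DESeq2 called 0 in either direction as well, and at an unadjusted p under 0.05 there was 1 higher, TXNDC11 (0.29 ± 0.11, adjusted p = 0.16), and 1 lower, ERO1B (−0.43 ± 0.20, adjusted p = 0.264). Of all 17317 genes tested, 3242 had such an unadjusted p in either direction, so these counts are not particular to the 10 genes. ERO1B was at 5.94, 7.44 and 7.37 CPM in knockdown cells under vehicle. It was called lower (−0.67, adjusted p = 0.018) without control replicate 3, the vehicle library with the low ERO1B value. The other 8 genes lay between −0.13 ± 0.10 for PDIA5 and 0.11 ± 0.06 for ERP44.

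Under tunicamycin 6 of the 10 genes were lower in the knockdown and 0 higher, against 8.65% lower and 6.96% higher among all genes. The median of the 10 genes was −0.23 beside 0 over all genes, and DESeq2 also called 6 lower and 0 higher. 8 genes were lower and 0 higher at an unadjusted p under 0.05. Of all 17317 genes tested, 4791 had such an unadjusted p in either direction. Leaving out control replicate 3 under tunicamycin cut the calls over all genes from 1498 to 926 lower and from 1206 to 609 higher, and 5 to 6 of the 10 genes were called lower in each fit without 1 library.

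The 11 epithelial markers summed to 199 to 215 CPM in the knockdown and 462 to 489 CPM in control cells under tunicamycin. Most of each sum was KRT18 (171 to 179 against 396 to 416 CPM) and KRT8 (24.3 to 30.9 against 59.8 to 72.0 CPM). EPCAM overlapped, at 1.82 to 2.96 against 1.98 to 2.91 CPM, and in each group 5 of the 11 had under 4 counts in every library. The part of the markers in these results was not tested.

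ERO1B fell furthest. Knockdown libraries had 51.3, 56.3 and 52.2 CPM under tunicamycin, all below the lowest control library at 91.1 CPM, a log2 change of −0.83 ± 0.06 (adjusted p = 1.77e-07). PDIA5 was at 27.8, 20.8 and 27.7 CPM against at least 38.6 CPM (−0.64 ± 0.10, adjusted p = 0.000343). TXNDC5 was at 68.5, 60.9 and 63.8 CPM against at least 85.5 CPM (−0.53 ± 0.07, adjusted p = 9.02e-05). For none of these genes did the groups overlap under tunicamycin. ERO1B also stood at −0.43 ± 0.20 under vehicle, and its interaction of knockdown with tunicamycin did not pass (−0.41 ± 0.20, adjusted p = 0.376, edgeR).

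P4HB was at 538, 513 and 494 CPM in the knockdown under tunicamycin (−0.38 ± 0.05, adjusted p = 0.000122). ERO1A was at 101, 92.4 and 93.9 CPM (−0.31 ± 0.06, adjusted p = 0.00119), below the control range of 116 to 122 CPM. ERP44 was at 198, 191 and 195 CPM, also below control cells, and its change was small (−0.15 ± 0.05, adjusted p = 0.0422). The call on ERP44 was lost without any 1 of the 6 libraries (adjusted p = 0.0549 to 0.153), without the filter on low counts (0.0583) and with DESeq2's size factors (0.0614).

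The remaining genes did not pass the test under tunicamycin. PDIA3 was at 530, 568 and 582 CPM, below every control library (−0.14 ± 0.05, adjusted p = 0.0585), and without the filter on low counts it was called lower (0.0346). PDIA4 (−0.15 ± 0.06, adjusted p = 0.117) overlapped the control range and was called lower without control replicate 1 (0.0126). PDIA6 was at 960, 984 and 973 CPM (−0.049 ± 0.037, adjusted p = 0.446) and TXNDC11 at 40.0, 40.1 and 42.8 CPM (0.058 ± 0.077, 0.693).

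Whether the knockdown changed the response itself was tested by its interaction with tunicamycin. P4HB was the 1 gene of the 10 that passed (−0.34 ± 0.08, adjusted p = 0.0196), and 0 were called higher, by edgeR, by DESeq2 and at an unadjusted p under 0.05. At an unadjusted p under 0.05 in the same edgeR fit, 5 of the 10 genes were lower. Of all 17317 genes tested, 2351 had such an unadjusted p in either direction. All 10 terms lay below 0, with a median of −0.25 beside 0.0083 over all genes. At a false discovery rate of 5%, 1.54% of all genes were called lower and 0.416% higher. P4HB rose 2.13-fold in the knockdown and 2.70-fold in control cells, and the call was lost without control replicate 1 or 2 under vehicle (adjusted p = 0.0615 and 0.0614), control replicate 3 under tunicamycin (0.0773), knockdown replicate 2 under vehicle (0.052), or knockdown replicate 2 or 3 under tunicamycin (0.0532 and 0.0725). PDIA5 (−0.51 ± 0.15, adjusted p = 0.0861), TXNDC5 (−0.42 ± 0.12, 0.088) and ERP44 (−0.25 ± 0.07, 0.0763) missed the threshold, and DESeq2 called these 3 as well as P4HB. ERO1B (−0.41 ± 0.20, adjusted p = 0.376) and ERO1A (−0.22 ± 0.08, 0.24) did not pass either.

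In knockdown cells TXNDC5 rose least of the genes called, from 57.3, 48.8 and 59.7 CPM to 68.5, 60.9 and 63.8 CPM (0.22 ± 0.08, adjusted p = 0.0326). The call was lost without knockdown replicate 2 under vehicle (0.177), replicate 1 (0.129) or 3 (0.0731) under tunicamycin, and under library totals alone (0.114). ERO1A was at 103, 90.4 and 101 CPM under vehicle and did not pass (−0.034 ± 0.061, adjusted p = 0.722). Its groups overlapped.

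**Figure D4:**
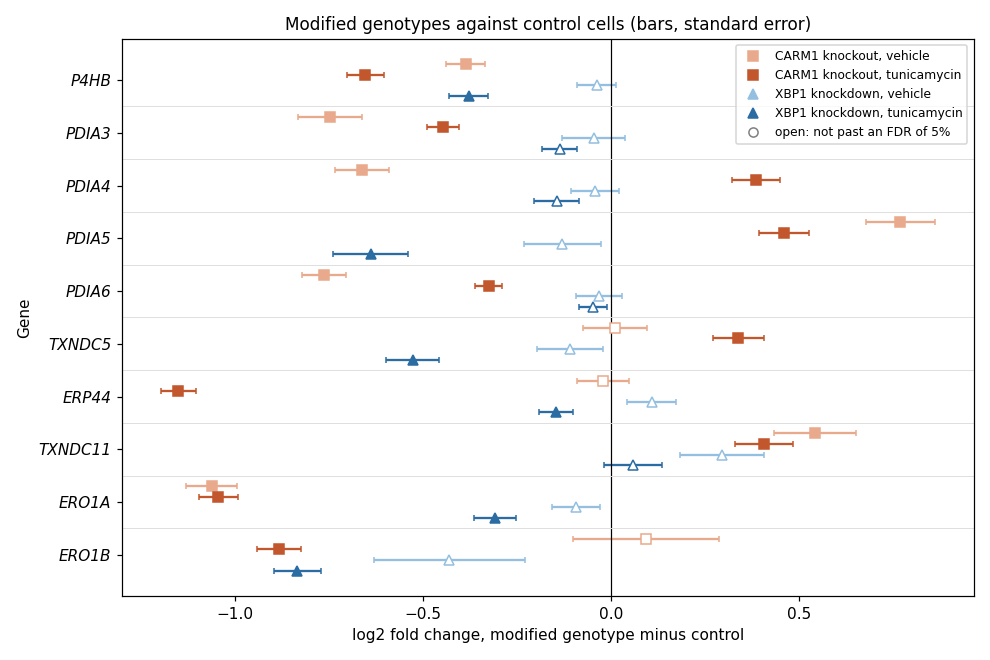
Log2 fold change of each gene in CARM1 knockout (squares) and XBP1 knockdown (triangles) cells against control cells, under vehicle (pale) and tunicamycin (dark), with the standard error as a bar and open symbols for values that did not pass a false discovery rate of 5%. Under vehicle all knockdown symbols are open, and under tunicamycin the knockdown values run from −0.83 for ERO1B to 0.058 for TXNDC11.

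Ordered by mean level, the 6 groups fell into different sequences from gene to gene. For P4HB, PDIA3 and PDIA6 the order from the lowest was knockout, knockdown and control under vehicle, then knockout, knockdown and control under tunicamycin. Among neighbours in that order, ranges overlapped between knockdown and control cells under vehicle and nowhere else. ERP44 had knockout, control and knockdown under vehicle, then knockout, knockdown and control under tunicamycin, with an overlap between knockout and control cells under vehicle. ERO1A was ordered by genotype before treatment, with both knockout groups lowest (49.9 ± 4.27 and 57.5 ± 1.26 CPM), both knockdown groups next (95.7 ± 4.42 and 98.03 ± 6.64 CPM) and both control groups highest (105 ± 5.02 and 119 ± 2.67 CPM). The knockdown groups overlapped each other, and knockdown and control cells overlapped under vehicle. For ERO1B the vehicle groups overlapped from 6.92 ± 0.844 to 9.91 ± 1.12 CPM, knockout and knockdown cells overlapped under tunicamycin, at 51.4 ± 2.31 and 53.3 ± 2.68 CPM, and control cells under tunicamycin stood alone at 94.9 ± 3.67 CPM.

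PDIA4, PDIA5, TXNDC5 and TXNDC11 had knockout cells under tunicamycin at the top. For PDIA4 this was 336 ± 28.1 CPM, with control (257 ± 19.98 CPM) and knockdown cells (233 ± 11.7 CPM) under tunicamycin overlapping next. PDIA5 in knockdown cells under tunicamycin (25.4 ± 4.01 CPM) overlapped knockout cells under vehicle (26.0 ± 0.864 CPM). TXNDC5 showed no gap between the 3 vehicle groups and knockdown cells under tunicamycin, from 55.3 ± 5.70 to 64.4 ± 3.84 CPM. TXNDC11 in control (39.3 ± 2.90 CPM) and knockdown cells (41.0 ± 1.60 CPM) overlapped under tunicamycin.

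Likeness of pattern was measured over the 18 libraries as the root mean square difference in log2 CPM after each gene was centred on its own mean, among 9524 genes. Within the 10 genes PDIA3 and PDIA6 were most alike (0.11) and ERO1A and ERO1B least (1.48). The closest gene to PDIA6 was RSL24D1 (0.086), to PDIA3 PDIA6 and then CALR (0.13), and to P4HB UFL1 (0.12). PDIA4 was closest to AARS1 (0.26), PDIA5 to SMIM14 (0.17), TXNDC5 to DNAJC25 (0.16) and TXNDC11 to MARS1 (0.14). For ERP44 it was GOLGA2P7 (0.14), followed by SEPHS2 (0.14), for ERO1A RBBP4 (0.11), and for ERO1B SEL1L (0.32), then SELENOK (0.36) and FICD (0.36). These points share libraries and depth and are given as a description.

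Related genes were read from 4 lists. Of 14 other ER proteins with a thioredoxin domain, 9 were tested, and PDILT and AGR3 were at 0 counts in every library. In control cells under tunicamycin 6 of the 9 were higher and 3 did not pass the test (median 0.46), led by DNAJC10 (1.83 ± 0.06, adjusted p = 1.31e-12), an ER reductase, then TXNDC15 (1.02), ERP29 (0.93) and TXNDC12 (0.67). Of 11 further ER peroxidases, oxidases and redox proteins 4 were higher and 2 lower (median −0.0041), led by the selenoproteins SELENOS (2.25), SELENOM (0.72) and SELENOF (0.67) and the peroxidase GPX8 (1.01). Of 15 tested lectins, subunits and client partners 10 were higher and 5 did not pass (median 1.09), led by DUOX2 (2.29), EDEM1 (2.23), EDEM2 (2.23) and CLGN (1.70). DUOX2 had only 8 to 57 counts per library, so counting error weighs on its folds here and below. In the cytosol, 7 of 10 thioredoxin and glutathione genes were higher and 1 lower (median 0.41), led by GLRX (1.501), GCLC (0.86), GLRX2 (0.82) and GCLM (0.67).

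In the knockdown under tunicamycin, against control cells, the thioredoxin-domain list had 4 of 9 lower and 5 that did not pass (median −0.063), with DNAJC10 at −0.48, TXNDC16 at −0.48, TXNDC15 at −0.45 and TXNDC12 at −0.26. Of the redox list 3 of 11 were lower and 8 did not pass (median −0.11), SELENOS at −0.82, SELENOM at −0.41 and PRDX4, a peroxidase that feeds disulfides to isomerases, at −0.26. Of the partners 5 of 15 were lower and 1 higher (median −0.21), with EDEM2 at −1.05, DUOX2 at −1.01, EDEM1 at −0.52 and EDEM3 at −0.47. The glutathione and thioredoxin list had 4 of 10 higher and 3 lower (median −0.0098), with GLRX at −0.71 and GSR, TXN and GSS at 0.37, 0.35 and 0.35. Among all genes 6.96% were higher and 8.65% lower.

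In the knockout under tunicamycin, against control cells, the thioredoxin-domain list had 6 of 9 lower and 2 higher (median −0.30), with TXNDC15 at −1.13, TXNDC16 at −1.09, TXNDC12 at −0.94 and DNAJC10 at −0.58. The redox list had 6 of 11 higher and 5 lower (median 0.27). GPX7, a peroxidase, had 60 to 70 counts in knockout libraries and 0 to 2 in control libraries, and SELENOM (−3.04), QSOX1 (1.91) and SELENOF (0.80) followed. Partners were 5 of 15 higher and 7 lower (median −0.056), led by EDEM3 (−2.08), ERAP1 (−1.75), DUOX2 (−1.34) and EDEM2 (−0.93). The glutathione and thioredoxin list had 7 of 10 higher and 3 lower (median 0.98), led by TXN (2.46), TXNRD1 (1.67), TXNRD2 (1.55) and GLRX (1.09). Among all genes 38.1% were higher and 37.1% lower. By the interaction term 3 of 9, 4 of 11 and 5 of 15 genes of the thioredoxin-domain, redox and partner lists responded less in the knockout, with TXNDC12 at −0.74, GPX8 at −0.96 and DUOX2 at −2.12. The glutathione and thioredoxin list had 2 of 10 responding more and 3 less, with GCLM at −0.76, beside 10.3% more and 12.7% less among all genes.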

How the data were processed

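RNA from the 18 libraries was sequenced by the authors as 75 nt single reads from a 3′ mRNA kit, aligned with bowtie2 to hg19 and counted with RSEM, whose version is 1.2.3 in the submitters' processing notes while the methods name another release. The deposited table holds estimated counts in whole numbers per Ensembl gene, not normalized. 3′ tags do not scale with gene length, and genes that share 3′ sequence can exchange reads. The authors tested pairs of groups with DESeq2 at an FDR of 5%.

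From these counts, genes with low counts were dropped (edgeR 4.0.16 filterByExpr, minimum count 10, R 4.3.3), which left 17317 of 57736 genes. TMM factors were computed over all libraries, and edgeR's quasi-likelihood test was run on the whole table with only the compared groups in the fit and Benjamini-Hochberg adjustment. Interaction terms came from fits over 4 groups. CPM values use the TMM-scaled library size, and the profiles compared for likeness are log2 CPM with a prior count of 2. The scripts were tested on simulated counts. Of the gene identifiers, 55501 matched a symbol. Gene positions are from the GRCh37 annotation.

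Replicate libraries of 1 group differed by more than sampling noise (chi-square per degree of freedom 1.84 to 6.89 in 18 pairs), so each counted once. The replicate numbers did not pair the samples: 45 correlations between deviations of equal-numbered libraries lay between −0.051 and 0.045. The alternatives were other scalings (DESeq2 1.42.0 size factors, library totals, TMM from the compared libraries), other filters, DESeq2's test, all libraries in 1 fit, a replicate block and leaving out each library. All 10 genes are named, and from each list of related genes up to 4 called genes with the largest absolute change in the comparison described, with genes under 4 counts in every library where useful. The genes and lists were chosen with earlier results of these data known.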

Additional observations from a re-analysis of the deposited data

Results flagged for a closer look

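The tunicamycin response of 9 gene and genotype pairs differed from that of control cells by a test of the difference itself, the interaction term of edgeR's quasi-likelihood fit, given here on the log2 scale with its standard error. In CARM1 knockout cells the response was smaller for ERP44 (−1.13 ± 0.08, adjusted p = 2.25e-09), ERO1B (−0.98 ± 0.19, 0.000717), PDIA5 (−0.31 ± 0.10, 0.0353) and P4HB (−0.27 ± 0.08, 0.013). It was larger for PDIA4 (1.05 ± 0.10, adjusted p = 2.53e-07), PDIA6 (0.44 ± 0.07, 0.000137), TXNDC5 (0.33 ± 0.12, 0.0489) and PDIA3 (0.30 ± 0.10, 0.0433). In XBP1 knockdown cells it was smaller for P4HB (−0.34 ± 0.08, adjusted p = 0.0196). Under the alternatives run, the calls for PDIA5 (lost in 12 of 20), TXNDC5 (10 of 21) and PDIA3 (8 of 20) in the knockout and for P4HB in the knockdown (6 of 20) did not hold throughout, while the other 5 did. The same 6 control libraries stand in both sets of terms, and in the knockout the epithelial and collagen markers differ from control cells as well.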

How the results depend on the processing

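Of 1389 fits of a single gene under an alternative, 1303 kept the direction and the side of the threshold, 54 lost a call, 12 gained one and 20 changed sign. Without 1 library, the genes called lower in the knockdown under vehicle ran from 0 to 1, those responding more in the knockout from 2 to 4, and those responding less in the knockdown from 0 to 1. The last count was 3 without the filter, 4 by DESeq2 and 2 with all libraries in 1 fit. Under library totals the knockout change under vehicle was −0.20 for TXNDC5 and −0.12 for ERO1B, and the PDIA6 interaction in the knockdown 0.0035. With TMM from the compared libraries TXNDC5 stood at −0.034. Values that changed sign without 1 library ran, in the knockout under vehicle, from −0.076 to 0.069 (TXNDC5), −0.15 to 0.25 (ERO1B) and −0.082 to 0.023 (ERP44). In the knockdown under vehicle they ran from −0.16 to 0.018 (PDIA3), −0.11 to 0.015 (PDIA6) and −0.059 to 0.0037 (P4HB), for TXNDC11 under tunicamycin from −0.000535 to 0.097, and for the ERO1A response from −0.089 to 0.0011. The interactions ran from −0.042 to 0.070 (ERO1A, knockout), −0.15 to 0.028 (PDIA3, knockdown) and −0.064 to 0.057 (PDIA6, knockdown). None of the values that changed sign had passed the test in the fits reported above, and the cause was not tested. Under library totals TXNDC5 in the knockout under vehicle also passed (adjusted p = 0.0405, edgeR), and it is counted only among the sign changes. The replicate block called PDIA3 lower in the knockdown under tunicamycin (−0.14, adjusted p = 0.0389), lost the knockout interactions of PDIA5 (−0.31, 0.0554) and TXNDC5 (0.33, 0.0522) and changed no other call on the 10 genes. Over all genes, calls in the knockdown under vehicle (405 higher, 509 lower) ran from 157 to 618 and from 282 to 636 without 1 library, with 690 higher without the filter and 696 with all libraries in 1 fit. Under tunicamycin (1206 and 1498) they ran from 609 to 1066 and from 926 to 1402. For its interaction (72 and 267) they ran from 31 to 114 and from 187 to 320, with 237 and 556 without the filter, 119 higher with all libraries and 47 higher with the block. ERO1B had the lowest levels of the 10 genes, down to 5.94 CPM in knockdown cells under vehicle, and counting error weighs on its folds.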
